A study of Mus musculus with 6 samples.

Results

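Adhesion G protein-coupled receptors are cell surface receptors that join a long extracellular region, built from adhesion modules, to a bundle of membrane-spanning helices. Most of them cut themselves in 2 pieces that stay bound at the cell surface, and a short stretch next to the cut acts as a tethered agonist when the outer piece is pulled away or rearranged. Through G proteins they change cAMP and calcium signals, and they are known for roles in cell contact, myelination, synapse formation, fluid transport and surfactant balance. The family was measured here by every probe set whose single gene symbol in the platform's annotation begins with Adgr followed by a subfamily letter and a number. This gave 41 of 45037 probe sets, which read 22 of 18193 genes. The Entrez identifiers of all 41 were found in RefSeq (GRCm38.p6) under the same symbols. RefSeq holds 27 protein-coding genes of this name, and the remaining 5 (Adgrf2, Adgrf3, Adgrg4, Adgrg5 and Adgrg7) were not analysed here.

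The arrays carried RNA from mouse breast cancer cells, which the labels call breast cancer stem cells, sorted by 2 surface proteins: CD24, a small glycoprotein, and CD29, the integrin beta-1 chain. One group was positive for both proteins (CD24+CD29+) and the other negative for both (CD24-CD29-), and 3 arrays were made of each. All cells were cultured in DMEM with fetal bovine serum, and neither the strain, the tumour, the cell line, a genotype nor an age is given in the sources used here. Per the design text the 3 sample sets are biological and independent, with nothing on whether they were separate cultures, sorts or animals, so the p-values speak to the spread among these 6 samples, which may be technical.

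Values are log2 RMA expression values as deposited, and every difference is CD24+CD29+ minus CD24-CD29- in those units, beside the SE (standard error) from limma. A probe set passed when its p-value was under 0.05 after Benjamini-Hochberg adjustment over the 45037 probe sets. Array medians were 6.23 to 6.29 and lower quartiles 5.20 to 5.40, and the highest value on an array was 14.9 or 15.0. No detection calls came with the values, so a value near the lower quartile cannot be told from background, and probe sets of different genes are not set against each other in level. Over probe sets, which are not independent replicates, the correlation was r = 0.997 to 0.998 between arrays within a group and 0.974 to 0.979 across the groups. Of the sort genes, Itgb1 was higher by 0.87 (SE 0.05) at 10.94 against 10.06, with a dim probe set lower, at -0.17. Cd24a was higher by 0.21 (SE 0.05) at 13.0 against 12.79 on its representative probe set. On its other probe sets it was higher by 0.20 and lower, at -0.45. Its means in CD24-CD29- cells were 11.84 to 12.79, far above the array medians, so its RNA was present in both groups. The label was checked against 12 markers of mammary epithelial cells. Their mean level was 11.7 to 11.8 on CD24+CD29+ arrays and 11.8 to 11.9 on CD24-CD29- arrays, and each had a mean above 6. In CD24+CD29+ cells 3 of these 12 were higher and 7 lower, as were 1 and 3 of 6 measured adipocyte markers. Of all genes, 33.4% were higher and 35.5% lower. The RNA came from bulk cells, in which fewer cells of a type and less RNA per cell cannot be told apart.

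The 250 bases before the RefSeq start sites of 3 genes are shown first, because Adgrf5 had the largest fall of the family and Adgrg2 and Adgra3 had the 2 largest rises on a representative probe set. Sequences are from RefSeq (GRCm38.p6), 5′ to 3′ on the gene's strand, with CG dinucleotides in capitals. The Adgrf5 windows lie at chr17:43360181-43360430 and chr17:43389216-43389465, both on the plus strand. The Adgrg2 window is chrX:160390440-160390689 on the plus strand, and the Adgra3 window is chr5:50058997-50059246 on the minus strand.
Adgrf5, first start site: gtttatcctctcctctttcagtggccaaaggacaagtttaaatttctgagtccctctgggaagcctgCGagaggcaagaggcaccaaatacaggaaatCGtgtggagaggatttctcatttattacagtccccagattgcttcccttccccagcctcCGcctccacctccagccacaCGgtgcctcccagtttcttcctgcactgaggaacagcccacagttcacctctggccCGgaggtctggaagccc
Adgrf5, second start site: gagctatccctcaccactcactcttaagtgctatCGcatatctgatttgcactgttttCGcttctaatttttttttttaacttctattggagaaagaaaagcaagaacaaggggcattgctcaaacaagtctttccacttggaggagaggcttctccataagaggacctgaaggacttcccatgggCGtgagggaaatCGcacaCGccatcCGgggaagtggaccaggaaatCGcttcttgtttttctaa
Adgrg2: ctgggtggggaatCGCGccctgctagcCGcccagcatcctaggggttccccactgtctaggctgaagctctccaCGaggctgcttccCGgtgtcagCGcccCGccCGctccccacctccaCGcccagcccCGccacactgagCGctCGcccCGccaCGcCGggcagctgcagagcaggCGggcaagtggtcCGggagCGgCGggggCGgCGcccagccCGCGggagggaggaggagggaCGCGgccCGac
Adgra3: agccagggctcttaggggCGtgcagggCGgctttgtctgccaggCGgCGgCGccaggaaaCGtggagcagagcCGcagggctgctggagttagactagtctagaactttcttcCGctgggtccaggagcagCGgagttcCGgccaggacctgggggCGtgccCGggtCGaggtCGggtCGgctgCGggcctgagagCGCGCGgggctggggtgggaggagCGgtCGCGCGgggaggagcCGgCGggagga
The Adgrf5 windows hold 5 and 7 CG dinucleotides, near the median of 6 over 32851 windows of the same length. The windows of Adgrg2 and Adgra3 hold 26 and 25, above the upper quartile of 16. Genes called in either direction had windows rich and poor in CG: the window of Adgrg6, which rose, holds 32, while both windows of Adgrg1, which rose too, hold 4, and the first window of Adgrl3, which fell, holds 36. Windows were available for 17 of the 22 genes, 21 in all. The motif GGGCGG, searched on both strands, was in 11 of the 21 windows, including those of Adgrg2 and Adgra3 and neither of Adgrf5, against 32.7% of all windows. All the Adgrl3 windows are among these 11 and some of them overlap, so the windows are not independent. TATAAA, on either strand, was in 2 of the 21, against 12.4% of all, and TTCCGG, on either strand, in 3, against 12.03%. These 3 motifs, all that were searched, and the windows shown were chosen after the differences were known, and a match describes the letters only.

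Over the family, 23 of 41 probe sets passed, 11 higher and 12 lower in CD24+CD29+ cells, while 63.9% of all probe sets passed, 29.2% higher and 34.8% lower. By gene, each represented by its probe set with the highest mean, leaving out those ending in _x_at where the gene had another, 15 of 22 passed. Of these, 8 were higher (Adgra2, Adgra3, Adgre5, Adgrg1, Adgrg2, Adgrg3, Adgrg6 and Adgrl2) and 7 lower (Adgra1, Adgre1, Adgre4, Adgrf1, Adgrf5, Adgrl3 and Adgrl4), while 68.9% of all genes passed, 33.4% higher and 35.5% lower. The median difference of the 22 genes was -0.07, and that of all genes was -0.04. These shares and medians lie near those of the whole array. The groups did not overlap for 17 of the 22 genes, and for 73.6% of all genes. Differences of at least 2-fold past the threshold were found for 2 of the 41 probe sets, both of Adgrf5, against 3.43% of all probe sets.

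**Figure D1:**
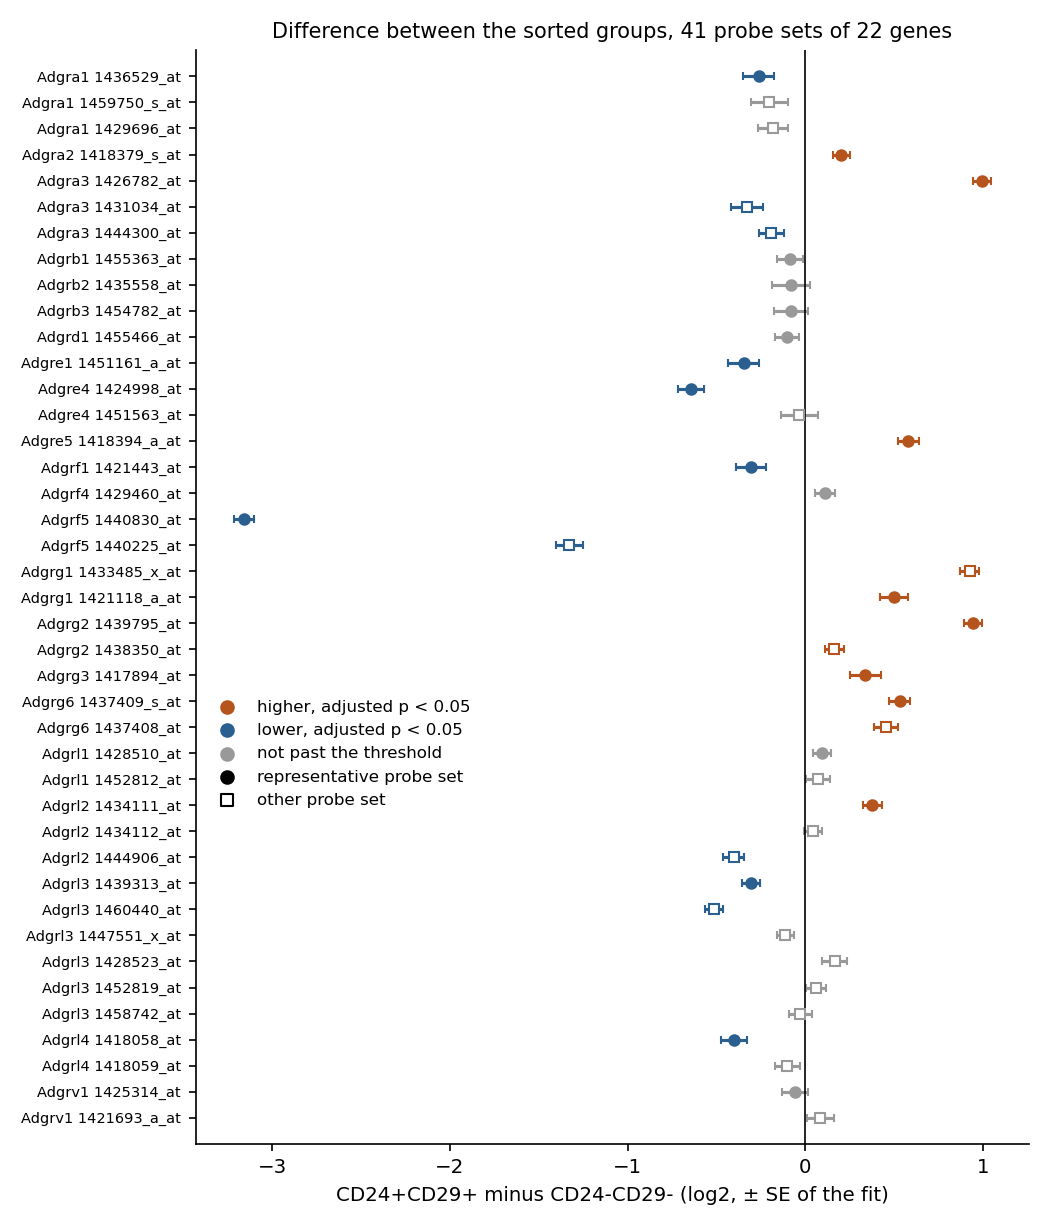
Difference between CD24+CD29+ and CD24-CD29- cells (horizontal axis, log2, with the SE of the limma fit) for each of the 41 probe sets, listed by gene. Orange marks higher, blue lower and grey not past the threshold; filled circles are representative probe sets and open squares the others. The pair of Adgrf5 probe sets lies at -3.16 and -1.33, and all 7 Adgrg probe sets lie to the right of 0.

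Higher and lower calls were spread unevenly over expression level, in bands chosen after the values were seen. Of the 18 family probe sets with a mean under 6 over the 6 arrays, 1 was higher and 6 lower, and of all such probe sets on the array 10.2% were higher and 42.5% lower. Of the 15 with a mean from 6 to 8, 4 were higher and 5 lower, against 38.1% and 32.2% of all. Of the 8 with a mean of at least 8, 6 were higher and 1 lower, and of all such probe sets 50.9% were higher and 24.7% lower. Added poly-A control RNAs were brighter on the CD24-CD29- arrays, where the mean of their 24 probe sets was 11.99 to 12.03, than on the CD24+CD29+ arrays, where it was 10.89 to 10.97. When the arrays were scaled to these controls, a set of probe sets chosen after their values were seen, the median difference of all genes went from -0.04 to 1.05. Then 39 of the 41 family probe sets were higher and 2 lower, with 98.5% of all probe sets higher and 0.657% lower, and each negative difference in the family except those of Adgrf5 became positive. With median centring 14 were higher and 10 lower. Every direction given for a gene therefore holds on the deposited values, that is relative to the rest of the array. The same scaling made the rises larger, that of Adgra3 going from 0.99 to 2.08.

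**Figure D2:**
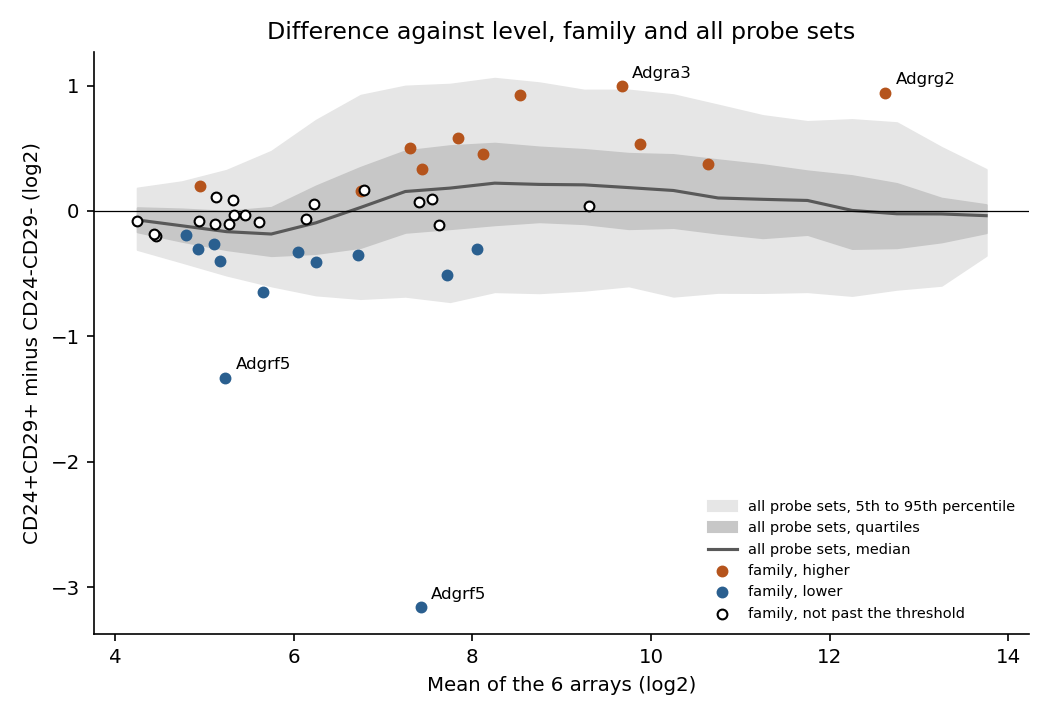
Difference between the groups (vertical axis, log2) against the mean over the 6 arrays (horizontal axis, log2) for the 41 family probe sets (points), over the quartiles, a wider percentile band and the median of all 45037 probe sets in steps of 0.5. The median of all probe sets is below 0 at low levels and above 0 between 7 and 12, most family points lie inside the wider band, and both Adgrf5 points lie below it.

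Adgrf5 (GPR116), known for its control of surfactant in lung alveolar cells and also made in endothelium, had the largest difference of the family. Its representative probe set, 1440830_at, read 5.77, 5.92 and 5.83 on the CD24+CD29+ arrays and 9.03, 9.02 and 8.96 on the CD24-CD29- arrays. The groups were far apart, and the CD24+CD29+ values lay within 1 unit of the array's lower quartile. The gene was lower by 3.16 in CD24+CD29+ cells, an 8.95-fold difference (SE 0.06, limma adjusted p = 1.7e-08, n = 3 per group). The dimmer probe set 1440225_at read 4.62, 4.47 and 4.62 against 5.89, 5.78 and 6.02. It fell by 1.33 (SE 0.08, limma adjusted p = 1.9e-06), but its CD24+CD29+ values lie below the lower quartile of every array and cannot be told from background, so the size of this fall is uncertain. With the arrays scaled to poly-A controls they were -2.08 and -0.25, both still past the threshold.

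Adgrf5 lies on chromosome 17 beside other members of its subfamily. In RefSeq's order of protein-coding genes its neighbours are Adgrf1 on one side, followed by Tnfrsf21, and Mep1a on the other. Adgrf1 (GPR110), which responds to a lipid made from docosahexaenoic acid, had a mean of 4.78 ± 0.06 against 5.09 ± 0.17 (SD, n = 3), both below the lower quartile of the arrays. It was lower by 0.31 (SE 0.08, limma adjusted p = 0.012), and after quantile normalization or cyclic loess it no longer passed, at -0.18 in both. Adgrf4 had means of 5.18 and 5.07 and did not pass, with a difference of 0.11 (SE 0.05), but passed at 0.25 after quantile normalization or cyclic loess and at 0.17 after median centring. Tnfrsf21, a death receptor gene that is no member, was lower by 1.20 (SE 0.05) at 9.18 against 10.39. Cd2ap, the next gene after Tnfrsf21, stood at 11.44 in both groups and did not pass (-0.004, SE 0.06). Mep1a, a metalloprotease gene, was lower by 0.45 (SE 0.09) at 5.43 against 5.88. Of all probe sets with a mean under 6, 42.5% were lower. Ankrd66, the next gene after Mep1a, had means of 5.03 and 5.07 and did not pass (-0.04, SE 0.07).

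In the Adgrg subfamily each of the 7 probe sets, which read 4 genes, was higher in CD24+CD29+ cells. All 7 had a mean of at least 6, where 38.1% (mean from 6 to 8) and 50.9% (mean of at least 8) of all probe sets were higher. Probe sets of 1 gene share their target. Adgrg2 (GPR64), known from the efferent ducts of the testis, where it acts in fluid reabsorption, read 13.11, 13.12 and 13.05 against 12.17, 12.13 and 12.15 on probe set 1439795_at. The groups did not overlap. The gene was 1.92-fold higher (0.94, SE 0.05, limma adjusted p = 1.3e-06). Its dimmer probe set 1438350_at was higher by 0.16 (SE 0.05). That call was lost without CD24+CD29+ array 2 (0.15) or 3 (0.15), without CD24-CD29- array 1 (0.14) or 3 (0.15), and after quantile normalization (0.12), cyclic loess (0.13) or a variance trend. Averaging both probe sets gave 0.55.

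Adgrg1 (GPR56), a receptor for collagen III and transglutaminase 2, was read by a pair of probe sets. The representative, 1421118_a_at, read 7.64, 7.43 and 7.58 in CD24+CD29+ cells against 7.20, 6.96 and 6.99. The gene was higher by 0.50 (SE 0.08, limma adjusted p = 0.00071). The brighter probe set 1433485_x_at, whose ending marks possible cross-hybridisation, read 9.0, 8.99 and 9.01 against 8.15, 8.01 and 8.07. It was higher by 0.93 (SE 0.055, limma adjusted p = 2.4e-06). On both probe sets all CD24+CD29+ values lay above all CD24-CD29- values.

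Adgrg6 (GPR126) drives Schwann cell myelination and binds collagen IV, a laminin and the prion protein. Probe set 1437409_s_at read 10.17, 10.16 and 10.12 in CD24+CD29+ cells against 9.58, 9.72 and 9.55, a rise of 0.53 (SE 0.06, limma adjusted p = 9.6e-05). Probe set 1437408_at read 8.38, 8.29 and 8.36 against 7.79, 8.01 and 7.87, a rise of 0.45 (SE 0.07), or 0.25 after quantile normalization or cyclic loess. On both, the second CD24-CD29- array was the nearest to the other group and still below it. Adgrg3 (GPR97), found mostly in leukocytes, read 7.68, 7.59 and 7.54 against 7.44, 7.10 and 7.26 and was higher by 0.34 (SE 0.09, limma adjusted p = 0.0086). Its call was lost after quantile normalization (0.17) and cyclic loess (0.19). Adgrg1 and Adgrg3 are neighbours on chromosome 8.

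**Figure D3:**
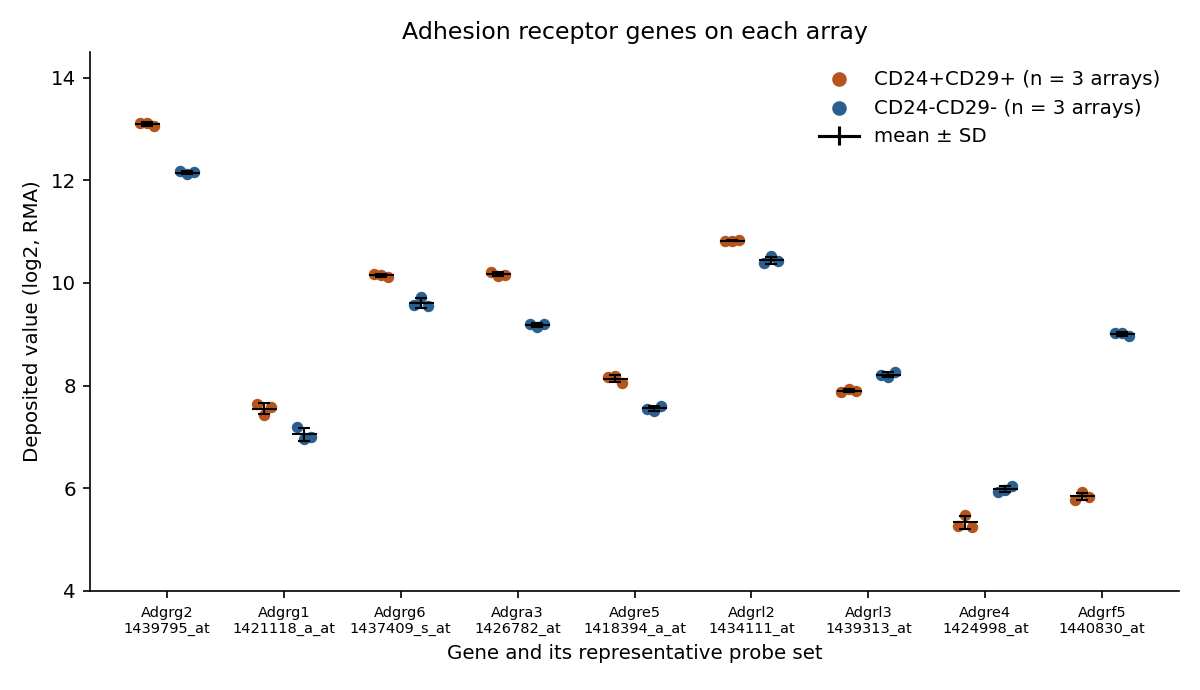
Deposited log2 values (vertical axis) of 9 genes of the family on their representative probe sets, with 1 point per array, orange for CD24+CD29+ and blue for CD24-CD29- (3 arrays each), and black bars for the mean ± SD. The groups do not overlap in these 9 genes, as in 73.6% of all genes, with Adgrf5 at 5.77 to 5.92 against 8.96 to 9.03; levels of different probe sets are not comparable.

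In the Adgra subfamily, Adgra3 (GPR125), an orphan receptor that binds the polarity scaffold Dlg1, read 10.21, 10.13 and 10.16 in CD24+CD29+ cells against 9.20, 9.14 and 9.19 on probe set 1426782_at. The groups lay about 1 unit apart, each with an SD of 0.04. The rise was 0.99, or 1.99-fold (SE 0.05, limma adjusted p = 1.2e-06). Its 2 dim probe sets went the other way. Probe set 1431034_at, at means of 5.88 and 6.21, was lower by 0.33 (SE 0.09), and 1444300_at, at 4.70 and 4.89, was lower by 0.19 (SE 0.07). Both dim calls were lost after quantile normalization and cyclic loess. That of 1444300_at was also lost after median centring, without CD24+CD29+ array 1 (-0.12) and without CD24-CD29- array 1 (-0.20), 2 (-0.21) or 3 (-0.16). Averaged over its 3 probe sets, Adgra3 was higher by 0.16. Adgra2 (GPR124), which acts with Reck in Wnt7 signalling of brain vessels, was higher by 0.20 (SE 0.05, limma adjusted p = 0.0067) between means of 5.05 and 4.85, both below the arrays' lower quartiles. After quantile normalization or cyclic loess its rise was 0.33. Adgra1, a brain gene, was lower by 0.26 (SE 0.09, limma adjusted p = 0.025) on 1 of 3 dim probe sets. That call was lost after quantile normalization, cyclic loess and median centring, without CD24+CD29+ array 1 (-0.25) or 3 (-0.23), and without CD24-CD29- array 3 (-0.17). Another, 1459750_s_at, at -0.20, passed with the replicate block and without CD24+CD29+ array 2 (-0.31).

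In the Adgre subfamily, whose outer part carries EGF-like repeats, the directions differed by gene. Adgre5 (CD97), found on leukocytes and on many carcinomas and a receptor for CD55, read 8.17, 8.18 and 8.05 in CD24+CD29+ cells against 7.55, 7.51 and 7.60. The groups did not overlap, and the gene was higher by 0.58 (SE 0.06, limma adjusted p = 4.1e-05). Adgre1, which encodes a classical macrophage surface antigen, read 6.61, 6.63 and 6.38 against 7.02, 6.78 and 6.86 and was lower by 0.35 (SE 0.09, limma adjusted p = 0.0069). Adgre4, a myeloid gene, read 5.27, 5.49 and 5.25 against 5.93, 5.96 and 6.04 on probe set 1424998_at and was lower by 0.65 (SE 0.07, limma adjusted p = 9.2e-05). The CD24+CD29+ values of this probe set lie near the arrays' lower quartiles and cannot be told from background, so the size of this fall is uncertain. The other Adgre4 probe set, at means of 5.44 and 5.47, did not pass (-0.03, SE 0.10), and the mean of both was -0.34.

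Markers of macrophages and of other leukocytes were read beside Adgre1 and Adgre4. Of 13 such genes, none was higher and 9 were lower in CD24+CD29+ cells (median -0.29), and 8 of the 13 had a mean under 6. Their mean level was 6.03 to 6.08 on CD24+CD29+ arrays and 6.36 to 6.45 on CD24-CD29- arrays. Cd14, at 12.50 against 12.78, was by far the brightest of the 13 and raised these means, while the median level of the 13 was 5.64. Csf1r, the macrophage growth factor receptor gene, was lower by 0.88 (SE 0.08), while Ptprc, the pan-leukocyte CD45 gene, stood at 4.85 ± 0.14 against 4.94 ± 0.15 (SD, n = 3), below the lower quartile in both groups, and did not pass. Markers of T, B and NK cells, with means of 5.38 to 5.51 against 5.71 to 5.81, had 8 of 10 lower and none higher. For comparison, 42.5% of all probe sets with a mean under 6 were lower, 32.2% of those from 6 to 8 and 24.7% of those at 8 or more. The part of other cells in these falls was not tested.

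In the Adgrl subfamily, Adgrl2 rose and Adgrl3 and Adgrl4 fell, and probe sets of 1 gene differed. The latrophilins Adgrl1, Adgrl2 and Adgrl3 bind teneurins and FLRT proteins across cell contacts. Adgrl2 read 10.82, 10.81 and 10.83 in CD24+CD29+ cells against 10.38, 10.52 and 10.43 on probe set 1434111_at, a rise of 0.38 (SE 0.05, limma adjusted p = 0.00035), or of 0.27 and 0.25 after quantile normalization and cyclic loess. Probe set 1434112_at had means of 9.33 and 9.28 and did not pass (0.04), and after quantile normalization or cyclic loess it passed as lower, at -0.15 and -0.16. The third, 1444906_at, at 6.05 against 6.45, was lower by 0.40 (SE 0.06), and the mean of the 3 was 0.01, which did not pass. Adgrl3 read 7.88, 7.93 and 7.89 against 8.21, 8.16 and 8.26 on probe set 1439313_at, a fall of 0.31 (SE 0.05, limma adjusted p = 0.00084), or of 0.50 and 0.51 after quantile normalization and cyclic loess. A second, 1460440_at, read 7.51, 7.41 and 7.45 against 7.93, 8.0 and 7.97 and was lower by 0.51 (SE 0.05). The other 4 Adgrl3 probe sets did not pass, with differences from -0.11 to 0.17, and the mean of all 6 was -0.12. Of these 4, 1447551_x_at passed as lower (-0.28) after quantile normalization or cyclic loess and at -0.11 with either filter on dim probe sets. Probe set 1428523_at passed as higher with the replicate block (0.17), a minimum mean of 6 (0.17) or median centring (0.22), and without CD24+CD29+ array 2 (0.23).

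Adgrl4 (ELTD1), an endothelial gene, was lower by 0.40 (SE 0.07, limma adjusted p = 0.0014), or by 0.26 after quantile normalization or cyclic loess. Its means of 4.98 and 5.38 lie near or below the arrays' lower quartiles and cannot be told from background. The other Adgrl4 probe set did not pass (-0.10), except without CD24-CD29- array 3 (-0.18). The endothelial genes Pecam1 and Cdh5 were at 4.87 ± 0.14 and 5.27 ± 0.03 in CD24+CD29+ cells and 5.00 ± 0.13 and 4.98 ± 0.18 in CD24-CD29- cells (SD, n = 3), near or below the lower quartile. Pecam1 did not pass, and Cdh5 was higher by 0.29 (SE 0.09). Among brighter endothelial markers the calls differed. Robo4, a guidance receptor gene, was higher by 1.11 (SE 0.07) at 8.49 against 7.38. Flt1, a VEGF receptor gene, was higher by 1.08 (SE 0.09) at 7.85 against 6.78, and Esam by 0.40 (SE 0.07). Erg (8.10 against 7.99), Eng (7.34 against 7.44), Kdr and Egfl7 did not pass on their representative probe sets. Other probe sets of Erg and Eng were lower, at -0.38 and -0.37, and others of Egfl7 higher, at 0.23 and 0.19. Of 14 endothelial markers 5 were higher, 1 was lower and 8 did not pass, while 33.4% of all genes were higher and 35.5% lower. The mean level of these markers was 6.16 to 6.19 on CD24+CD29+ arrays against 5.94 to 5.98. The part of endothelial cells in the values of Adgrf5 and Adgrl4 was not tested. Adgrl1 did not pass on either probe set (0.09 and 0.07, each with means of 7.36 to 7.60), though 1 passed at 0.15 after median centring, and after quantile normalization both were negative (-0.08 and -0.09).

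The Adgrb genes include a receptor for the engulfment of dying cells and synaptic proteins, and Adgrv1 is a very large receptor of the hair cell's stereocilia. The remaining genes, Adgrb1, Adgrb2, Adgrb3, Adgrd1 and Adgrv1, did not pass. Their differences on representative probe sets ran from -0.10 to -0.06, and their group means from 4.20 to 6.17, below the arrays' medians. The SEs of these 5 were 0.07 to 0.11. Without CD24+CD29+ array 3, Adgrb2 passed as lower (-0.21, limma adjusted p = 0.042). A missed threshold does not show that the groups were equal. A second Adgrv1 probe set was at 0.08 and passed at 0.23 after quantile normalization or cyclic loess.

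The 3 Celsr genes encode adhesion receptors of the same class that organise planar cell polarity and carry other names. Celsr1 read 10.65, 10.59 and 10.64 in CD24+CD29+ cells against 9.78, 9.80 and 9.80, a rise of 0.83 (SE 0.05, limma adjusted p = 2.2e-06). Celsr2, at 10.67 against 10.62, did not pass (0.04, SE 0.05), although its dimmer probe set rose by 0.45. Celsr3, between means of 5.54 and 5.81, was lower by 0.26 (SE 0.08), a call lost after quantile normalization, after cyclic loess and without CD24+CD29+ array 1.

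Ligands and extracellular partners of the family went in both directions. Of 32 listed genes 30 were measured, and 10 rose, 11 fell and 9 did not pass (median -0.04, as for all genes), while 33.4% of all genes were higher and 35.5% lower. Col3a1, the ligand of Adgrg1, read 9.92, 9.88 and 9.97 in CD24+CD29+ cells against 8.21, 8.09 and 8.28. It was 3.31-fold higher (1.73, SE 0.06, limma adjusted p = 2.3e-07). The collagen IV genes Col4a1 and Col4a2, whose protein binds Adgrg6, were higher by 0.71 (SE 0.05) and 0.92 (SE 0.05). Rtn4rl2, a Nogo receptor relative, was higher by 1.07 (SE 0.06). Tgm2, the transglutaminase that binds Adgrg1, stood at 9.97 in CD24+CD29+ and 9.98 in CD24-CD29- cells on its representative probe set and did not pass (-0.01, SE 0.05), while its 4 probe sets ending in _x_at, 3 of them brighter, were lower by 0.42 to 0.89. Cd55, the ligand of Adgre5, read 6.85, 6.51 and 6.70 against 6.38, 6.29 and 6.20 and was higher by 0.40 (SE 0.09, limma adjusted p = 0.0043), and its other 2 probe sets rose too. Of 12 fibroblast markers, 10 were higher on CD24+CD29+ arrays and none lower, against 33.4% and 35.5% of all genes, with mean levels of 8.61 to 8.66 against 7.90 to 7.93. Their part in the rise of the collagen genes and receptors was not tested.

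**Figure D4:**
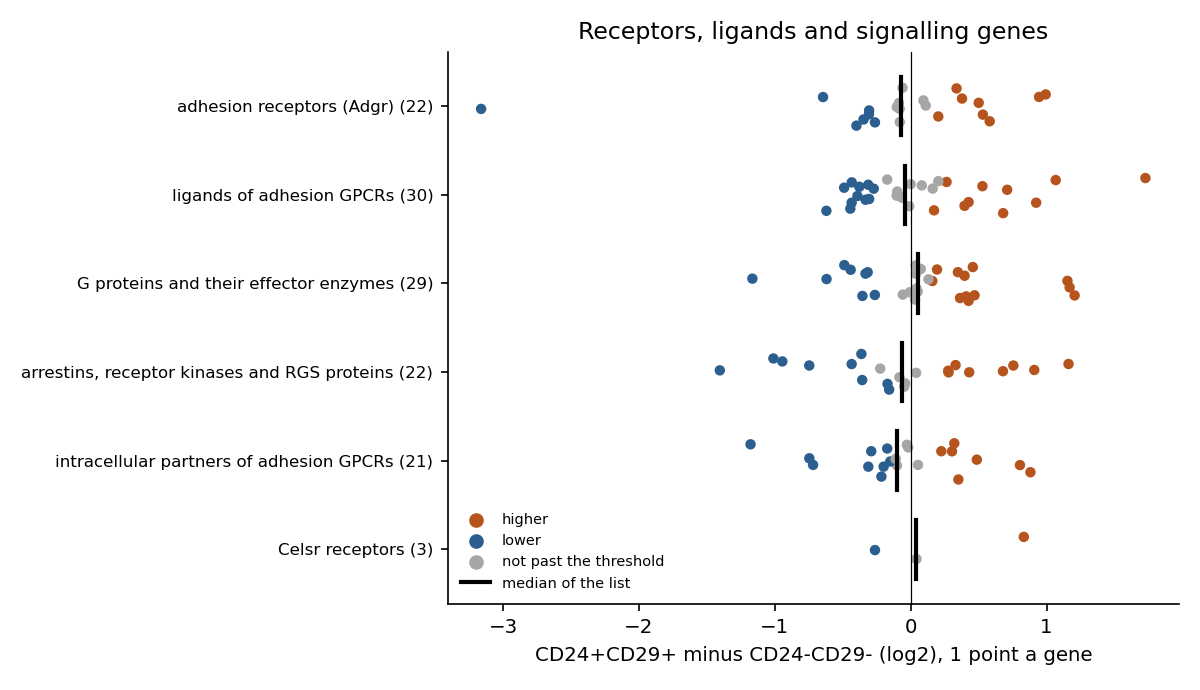
Difference between the groups (horizontal axis, log2) for each gene of the receptor family and of 5 lists, with 1 point a gene, orange for higher, blue for lower and grey for not past the threshold, and a black bar for the median of each list. The number of measured genes follows each name; the medians lie between -0.10 and 0.05, and each list of more than 3 genes has points on both sides of 0.

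Among 29 genes of G protein subunits, adenylyl cyclases, phospholipases, protein kinase A and Creb1, 12 rose, 8 fell and 9 did not pass (median 0.05). The 20 that passed are near the share of all genes, 68.9%. Gna12, which encodes a G protein alpha subunit that adhesion receptors use, read 8.28, 8.15 and 8.18 in CD24+CD29+ cells against 7.80, 7.87 and 7.75 and rose by 0.40 (SE 0.06), with 4 dimmer probe sets that did not pass. Gna13 did not pass on its representative probe set (0.05, SE 0.05), and its others were called in both directions. The inhibitory subunit gene Gnai1 rose by 1.17 (SE 0.05), Gna14, of the Gq class, by 1.15 (SE 0.06) and the phospholipase gene Plcb4 by 1.21 (SE 0.07). Adcy5, an adenylyl cyclase gene, fell by 1.17 (SE 0.05).

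Of 22 arrestins, receptor kinases and RGS proteins, which end receptor signals, 8 rose, 9 fell and 5 did not pass (median -0.07), so that 17 of 22 passed, against 68.9% of all genes. Rgs2, which turns off Gq, fell by 1.41 (SE 0.06) and Rgs20, which acts on the Gi class, by 0.94 (SE 0.06). The receptor kinase genes Grk5 and Grk3 differed in direction, with a rise of 1.16 (SE 0.09) and a fall of 1.01 (SE 0.08), and a dim Grk5 probe set was lower, at -0.30. Of 21 intracellular partners, 7 rose, 9 fell and 5 did not pass (median -0.10), which is 16 of 21 against the same 68.9%. Dock1, which activates Rac in the engulfment pathway of Adgrb1, rose by 0.88 (SE 0.10), with a dim probe set lower, and Tiam1, another Rac activator that binds this subfamily's complexes, by 0.80 (SE 0.06). Baiap2, named for its binding to Adgrb1, fell by 1.18 (SE 0.05), with 1 of 4 probe sets higher, and Whrn, the stereocilia scaffold that holds Adgrv1, by 0.75 (SE 0.05), with 1 dim probe set higher.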

How the data were processed

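RNA from 6 samples of sorted mouse breast cancer cells was measured on Affymetrix Mouse430_2 arrays. The deposited values are log2 expression, 1 per probe set, and RMA and Partek are named per the submitters' processing notes, with no version, setting or genome build. They were used as deposited, without 64 control probe sets. Symbols came from the platform annotation, which can be old. Groups came from the labels. limma 3.58.1 (R 4.3.3) was fitted to 45037 probe sets by group alone, with lmFit and then eBayes, and members were read from that fit. The fit was also tested on simulated data, where the largest changes were all recovered but the smaller ones were missed in part or mostly. A first limit set for recovery was not met and was lowered, with the fit unchanged. Few probe sets were changed in the simulation, while 63.9% passed in the data, so the recovery found there does not measure that of the fit reported here. A probe set that did not pass may still differ. The number of arrays limits the precision. Members, lists and tests were chosen with earlier results of these data known, and some genes first placed in the G protein list were taken out later and are not reported here. Values per array are given for genes with a probe set past the threshold that differed by at least 0.5 and for the 5 brightest. From each pathway list up to 4 genes past the threshold with the largest differences are named, and Tgm2, Col3a1, Cd55, Gna12, Gna13, Csf1r, Ptprc, Pecam1 and Cdh5 in any case. Other genes with values per array, and neighbours, were chosen after their values were seen. Alternatives were a replicate block, 4 scalings, 2 filters on dim probe sets, an intensity trend with robust variance, 2 ways of taking 1 value a gene, leaving out each array, and 1 scaling added after seeing the data. The poly-A control probe sets used for scaling, the level bands and the promoter motifs were likewise chosen after seeing values.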

Additional observations from a re-analysis of the deposited data

How the results depend on the processing

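Both Adgrf5 probe sets kept direction and call under each alternative that tested them. With the replicate block 12 probe sets and 8 genes of the family were higher and 13 and 7 lower. Deviations of same-numbered arrays correlated at 0.20, -0.04 and 0.05, so the numbers were not taken to pair the samples. Leaving out 1 array gave 10 to 11 higher and 10 to 13 lower probe sets, 8 higher and 6 to 7 lower genes, a median of -0.08 to 0.01, and 0 to 1 lower Celsr gene. Negative differences that had not passed changed sign in some of these fits: Adgrb2 ran from -0.21, where it passed, to 0.026, Adgrb3 from -0.18 to 0.028, the dimmer Adgre4 probe set from -0.15 to 0.042 and the dimmest Adgrl3 probe set from -0.076 to 0.0091.

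After quantile normalization the median of the family was 0.040, with 5 higher genes among arrestins, kinases and RGS proteins and 0 lower Celsr genes. Of probe sets that had not passed, these changed sign: Adgrb1 0.056, Adgrb2 0.040, Adgrd1 0.040, Adgre4 0.11, Adgrl1 -0.079 and -0.089, Adgrl2 -0.15, Adgrl3 0.11, Adgrl4 0.038 and Adgrv1 0.023. After cyclic loess the median was 0.044, with 0 lower Celsr genes, and these changed sign: Adgrb1 0.055, Adgrb2 0.050, Adgrb3 0.0085, Adgrd1 0.038, Adgre4 0.11, Adgrl1 -0.068 and -0.071, Adgrl2 -0.16, Adgrl3 0.11, Adgrl4 0.036 and Adgrv1 0.036. Of these, only the Adgrl2 probe set passed the threshold in the new direction. Median centring turned a dim probe set of Adgre4 to 0.021 and of Adgrl3 to 0.026. The cause of these changes was not tested.

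Scaling to 24 poly-A control probe sets gave 39 higher and 2 lower probe sets, 21 higher and 1 lower genes and a median of 1.01. Higher and lower genes were then 30 and 0 of the ligands, 28 and 0 of the G protein list, 19 and 1 of arrestins, kinases and RGS proteins, 20 and 0 of the intracellular partners and 3 and 0 of the Celsr genes. These differences turned positive: Adgra1 0.82, 0.88 and 0.90, Adgra3 0.76 and 0.89, Adgrb1 0.996, Adgrb2 1.002, Adgrb3 1.001, Adgrd1 0.98, Adgre1 0.73, Adgre4 0.44 and 1.05, Adgrf1 0.78, Adgrl2 0.68, Adgrl3 0.78, 0.57, 0.97 and 1.05, Adgrl4 0.68 and 0.98, and Adgrv1 1.02. The controls first taken were 15 probe sets that included trp, and they were replaced after it was seen that trp lies at background. They gave the same counts of probe sets (39 and 2) and genes (21 and 1), a median of 0.82, and for the lists 30 and 0, 28 and 1, 18 and 1, 20 and 1, and 3 and 0. The same differences were then Adgra1 0.63, 0.69 and 0.71, Adgra3 0.56 and 0.70, Adgrb1 0.80, Adgrb2 0.81, Adgrb3 0.81, Adgrd1 0.79, Adgre1 0.54, Adgre4 0.25 and 0.86, Adgrf1 0.58, Adgrl2 0.49, Adgrl3 0.58, 0.38, 0.78 and 0.86, Adgrl4 0.49 and 0.79, and Adgrv1 0.83. All follow from the shift of every probe set by 1 value.

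A minimum mean of 6 left fewer probe sets to test and gave 7 lower probe sets and 3 lower genes, a median of 0.36, and 7, 5 and 0 lower genes among ligands, partners and Celsr. Leaving out the dimmest 40% gave 7 lower probe sets, 3 lower genes, a median of 0.36, and 5 and 0 lower partners and Celsr genes. Averaging all probe sets per gene gave 4 higher partners, 2 higher Celsr genes and Adgrv1 at 0.012.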
